A study of Bos grunniens with 18 samples.

Results

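The Argonaute and microRNA (miRNA) processing genes were followed in the growing testis of the yak (Bos grunniens): AGO1, AGO2, AGO3, AGO4, DROSHA, DGCR8, XPO5, DICER1 and TARBP2. They are 9 of the 22183 genes in the deposited gene table and were taken by symbol, each of which stood on a single identifier. Circular RNAs (circRNAs) whose host gene was one of them were taken by host symbol, which gave 88 of 73679 circRNAs. Testes came from 9 male yaks described as healthy, from a single cooperative, castrated at 6 months, 18 months or 4 years, with 3 animals at each age and no other treatment named. Each animal gave 1 ribosomal RNA-depleted library for genes and circRNAs and 1 small RNA library for miRNAs, or 18 libraries in all. A separate label calls the 4-year animals infants, the 6-month animals adolescents and the 18-month animals adults, which goes against the ages in the titles, and the titles were followed. Gene libraries held 22.95 to 33.12 M estimated counts, 119.8 to 227.2 k back-splice reads were counted per library for circRNAs, and miRNAs had 4.25 to 9.68 M counts per library.

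In animals a primary miRNA is cut in the nucleus by the Microprocessor, in which DROSHA is the RNase III enzyme and DGCR8 its RNA-binding partner. XPO5 (exportin 5) carries the hairpin to the cytoplasm, DICER1 cuts it to a duplex with the help of the double-stranded RNA-binding protein TARBP2, and 1 strand is loaded into an Argonaute. The Argonaute then binds target mRNAs through the seed of the miRNA, bases 2 to 8, and recruits TNRC6 adaptors and deadenylases. In mammals AGO2 is the family member known for cutting target RNA. In the mouse, loss of Dicer in germ cells or in Sertoli cells disturbs spermatogenesis.

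The cellular make-up of the libraries differed with age, and all 12 meiotic and all 12 spermatid markers measured were higher at 18 months and at 4 years than at 6 months. The 12 spermatid markers summed to 20.4 to 30.1 counts per 1 M counts (CPM, scaled with the trimmed mean of M values, TMM) at 6 months, 225 to 3620.4 CPM at 18 months and 3706 to 5084 CPM at 4 years. Of 9 Sertoli markers measured, 6 fell and 2 rose at both older ages against 6 months, and all 5 Leydig and all 7 matrix markers fell. The Sertoli markers summed to 5044 to 5622, 895 to 2160.3 and 907 to 980.2 CPM at those ages, and the Leydig markers to 10199 to 15869.8, 2252 to 5329 and 2286 to 4053 CPM. No listed marker of meiosis, spermatids, Leydig cells, matrix or endothelium was at 0 in every library of an age, and the Sertoli marker GATA1 and the macrophage marker CD68 were at 0 in every 6-month library. Replicate 2 at 18 months lay nearest to the 6-month libraries, with spermatid markers at 225 CPM and Sertoli markers at 2160.3 CPM. In bulk tissue, fewer cells of a type and less RNA per cell cannot be told apart, and the part of these marker differences in any result below was not tested.

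Per transcript length, on the authors' FPKM scale, AGO2 had the highest level of the 9 genes at each age, with 12.3 ± 1.07, 28.2 ± 13.6 and 45.0 ± 3.95 FPKM (mean ± SD, n = 3) at 6 months, 18 months and 4 years. At 6 months DGCR8 (10.1 ± 1.16 FPKM) and DICER1 (7.94 ± 0.18 FPKM) followed, and the lowest was DROSHA with 2.87 ± 0.216 FPKM, whose libraries overlapped those of TARBP2 (3.41 ± 0.404 FPKM). AGO1, XPO5 and AGO4 lay between, at 6.60 ± 0.487, 5.93 ± 0.340 and 5.93 ± 0.161 FPKM, and neighbours among these 3 overlapped. At 4 years the order was AGO2, XPO5 (36.5 ± 4.26 FPKM), DGCR8 (11.4 ± 0.716 FPKM), DICER1 (7.53 ± 0.978 FPKM), AGO1 (6.49 ± 0.173 FPKM), TARBP2 (3.63 ± 0.337 FPKM), AGO3 (2.66 ± 0.329 FPKM), DROSHA (2.30 ± 0.124 FPKM) and AGO4 (1.15 ± 0.264 FPKM), and no 2 neighbours in it overlapped. XPO5, in the middle of the order at 6 months, stood next to AGO2 at 4 years, and AGO4, also in the middle at 6 months, stood last. At 18 months all neighbours but AGO1 and AGO3 overlapped, and AGO2 and XPO5 each spread widely between the 3 animals.

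The members moved in different directions with age. In edgeR's quasi-likelihood test on the counts, with Benjamini-Hochberg adjustment over the 16742 genes tested, 5 of the 9 passed an adjusted p of 0.05 at 18 months against 6 months. XPO5 was higher, and AGO1, AGO3, AGO4 and DROSHA were lower. Of all genes tested, 59.9% passed in that comparison (32.7% higher and 27.1% lower), so the members' count was near the background. At 4 years against 6 months 6 of the 9 passed, with AGO2 and XPO5 higher and AGO1, AGO3, AGO4 and DROSHA lower, where 73.9% of all genes passed (36.7% higher and 37.2% lower). Between 4 years and 18 months none of the 9 passed in edgeR, where 0.00597% of all genes passed. At an unadjusted p under 0.05 that comparison held 1 member, AGO4, against 21.3% of all genes. DESeq2 called 0 of the 9 there, against 5.18% of all genes. The median log2 fold change of the members was -0.44 at 18 months and -0.47 at 4 years against 6 months, beside 0.02 and -0.06 over all genes tested. The comparisons of 18 months and of 4 years with 6 months share the 6-month libraries and are not independent.

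**Figure D1:**
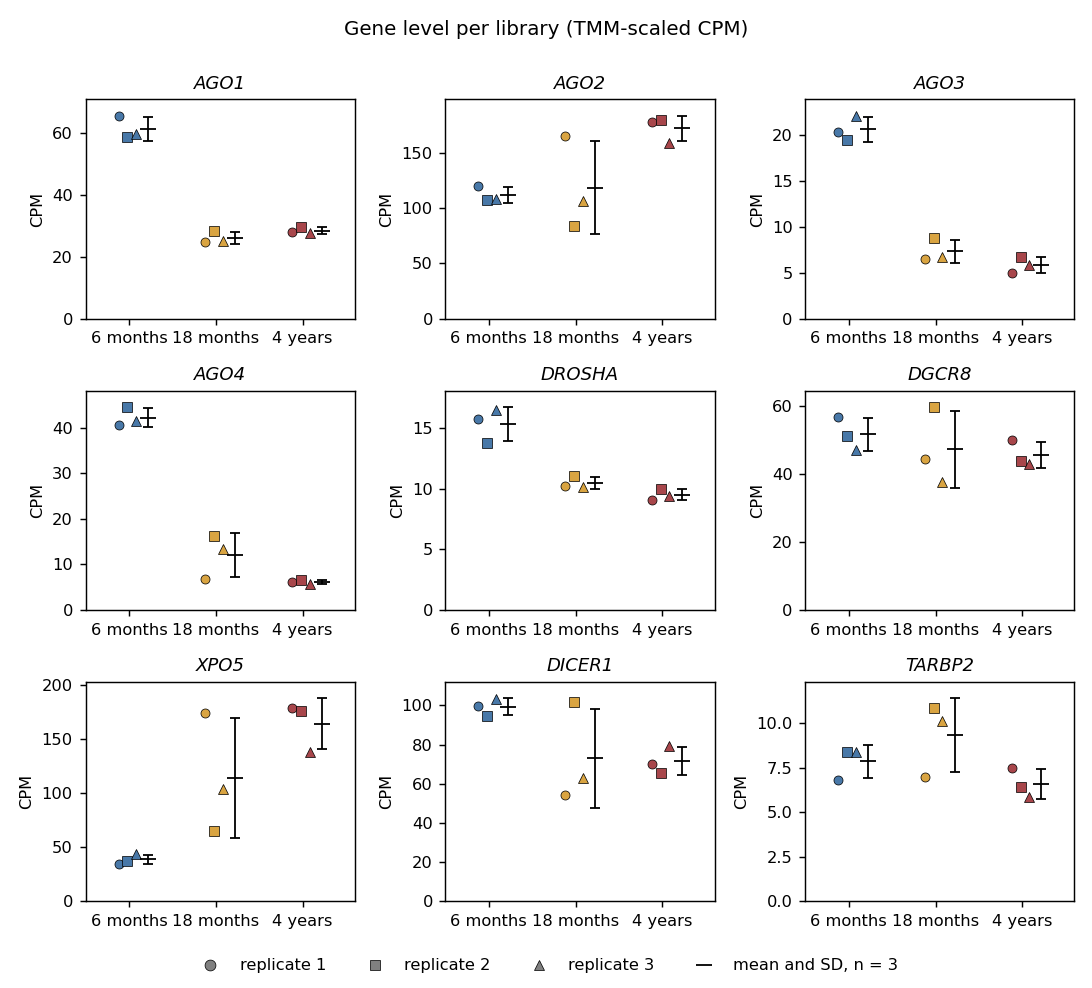
TMM-scaled CPM of the 9 genes in each of the 9 long RNA libraries, by age; symbols mark the replicate number, and the line and bar give the mean and SD of 3 animals. AGO1, AGO3, AGO4 and DROSHA were highest in the 6-month libraries, XPO5 was lowest there, and the 18-month libraries spread most for AGO2, XPO5 and DICER1.

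Among the Argonautes, AGO1, AGO3 and AGO4 fell together on the counts and AGO2 did not fall. AGO1 had 65.6, 58.6 and 59.8 CPM in the 6-month libraries, 24.9, 28.3 and 25.0 CPM in the 18-month libraries and 28.0, 29.7 and 27.8 CPM in the 4-year libraries. All 18-month and 4-year libraries lay below every 6-month library, and the older ages overlapped. AGO1 fell at 18 months with a log2 fold change of -1.24 ± 0.15 (SE; adjusted p = 0.000214, edgeR) and at 4 years with -1.11 ± 0.15 (adjusted p = 0.000206, edgeR).

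AGO3 had 20.3, 19.4 and 22.1 CPM in the 6-month libraries, 6.50, 8.79 and 6.74 CPM in the 18-month libraries and 4.94, 6.72 and 5.86 CPM in the 4-year libraries. Its 6-month libraries stood apart from all others, while those of 18 months and 4 years overlapped. The log2 fold change of AGO3 was -1.49 ± 0.22 at 18 months (adjusted p = 0.000604, edgeR) and -1.82 ± 0.22 at 4 years (adjusted p = 0.000156, edgeR), both against 6 months.

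AGO4 fell most of the 9, to 6.14 ± 0.335 CPM at 4 years against 42.2 ± 2.07 CPM at 6 months (mean ± SD, n = 3 each). Per library it had 40.6, 44.5 and 41.5 CPM in the 6-month libraries, 6.70, 16.2 and 13.5 CPM in the 18-month libraries and 6.13, 6.49 and 5.82 CPM in the 4-year libraries. No age overlapped another, and replicate 1 at 18 months lay next to the 4-year libraries. The log2 fold change was -1.80 ± 0.30 at 18 months (adjusted p = 0.000993, edgeR) and -2.78 ± 0.31 at 4 years (adjusted p = 0.000105, edgeR), or 6.86-fold lower at 4 years. At 4 years against 18 months it was -0.98 ± 0.29 (adjusted p = 0.174, edgeR), and without replicate 1 at 18 months -1.27 (adjusted p = 0.00612), which passed. Replicate 1 had the highest spermatid markers of that age (3620.4 CPM). The share of all genes that passed without it is not given here, so this call cannot be set against the background.

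AGO2 had 120.5, 108 and 109 CPM in the 6-month libraries, 166, 84.1 and 106 CPM in the 18-month libraries and 178, 179.7 and 159 CPM in the 4-year libraries. The 4-year libraries lay above every 6-month library. The 18-month libraries spanned both, with replicate 1 near the 4-year level and replicates 2 and 3 below every 6-month library. The log2 fold change of AGO2 was 0.62 ± 0.24 at 4 years against 6 months (adjusted p = 0.0420, edgeR). That call was lost, at adjusted p of 0.0573 to 0.108, when any 1 of the 6-month or 4-year libraries or replicate 3 at 18 months was left out. At 18 months against 6 months it was 0.08 ± 0.24 (adjusted p = 0.784, edgeR), and at 4 years against 18 months 0.54 ± 0.24 (adjusted p = 0.237, edgeR). Without replicate 1 at 18 months the last of these was 0.86 (adjusted p = 0.0106), again with no share of all genes to set beside it.

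The balance of Argonaute counts within a library, a ratio that needs no scaling between libraries, differed between the ages. AGO2 counts were 2.97, 2.42 and 2.62 times AGO4 counts at 6 months, 24.7, 5.19 and 7.90 times at 18 months and 29.0, 27.6 and 27.3 times at 4 years. The 3 ages did not overlap, and replicate 1 stood apart within the 18-month libraries, near the 4-year ratios. On the log2 scale the AGO2 to AGO4 ratio was 1.41 ± 0.15, 3.33 ± 1.16 and 4.81 ± 0.05 (mean ± SD, n = 3) at 6 months, 18 months and 4 years (exact permutation test of the F statistic over 1680 assignments of the libraries to the ages, adjusted p = 0.0119 over 10 ratios).

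The AGO2 to AGO3 ratio followed the same order on the log2 scale, with 2.45 ± 0.14, 3.97 ± 0.71 and 4.89 ± 0.24 at 6 months, 18 months and 4 years (exact permutation test, adjusted p = 0.0119). The AGO2 to AGO1 ratio was 1.84, 1.83 and 1.82 at 6 months, 6.67, 2.97 and 4.26 at 18 months and 6.37, 6.05 and 5.73 at 4 years (exact permutation test, adjusted p = 0.0238). Its 6-month libraries lay close together, and the 18-month libraries ranged from nearer to the 6-month ratio to past every 4-year library. Among the 3 genes that fell, AGO4 lost most: the log2 ratio of AGO4 to AGO1 was -0.54 ± 0.15, -1.20 ± 0.60 and -2.21 ± 0.04 at 6 months, 18 months and 4 years (exact permutation test, adjusted p = 0.0119). That of AGO3 to AGO1 was -1.57 ± 0.13, -1.83 ± 0.13 and -2.29 ± 0.19 at 6 months, 18 months and 4 years (exact permutation test, adjusted p = 0.0143), and that of AGO4 to AGO3 did not pass (exact permutation test, adjusted p = 0.0580). Those assignments allow no p below 0.00357 before adjustment.

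**Figure D2:**
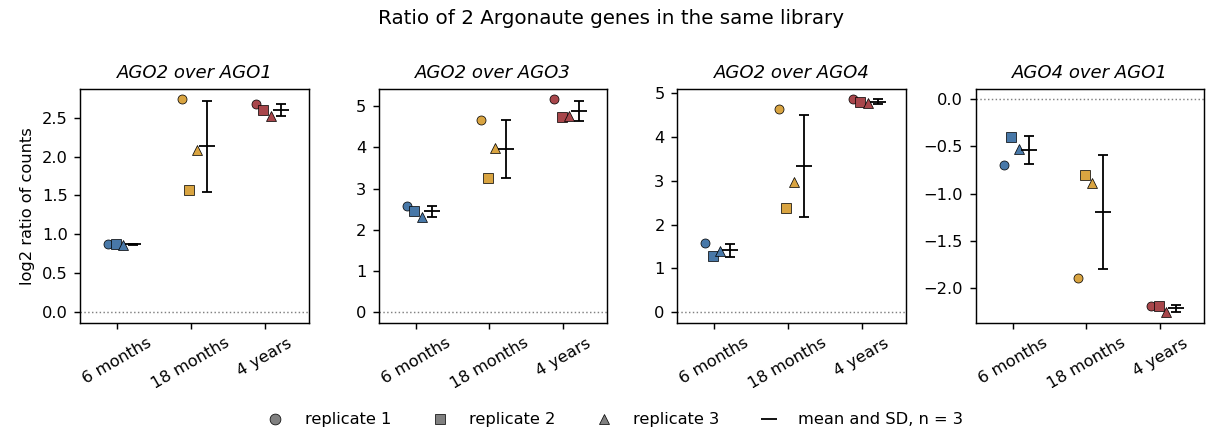
Log2 ratio of the counts of 2 Argonaute genes within each long RNA library, by age; symbols mark the replicate number, and the line and bar give the mean and SD of 3 animals. The ratios of AGO2 to the other 3 were lowest at 6 months and highest at 4 years by mean, and the 18-month libraries spread widely, replicate 1 lying above every 4-year library for AGO2 to AGO1.

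AGO3, AGO1 and AGO4 lay near each other. Their circRNAs were placed by the authors on the minus strand of chromosome 3, in that order, between positions 109754992 and 109974793, and AGO2 is on another chromosome (chromosome 14). The submitters' notes list the cattle build UMD3.1, and whether the coordinates follow it was not settled. Among the 7 genes on either side of AGO1 in a yak RefSeq annotation, used only for the order of genes, those measured did not share 1 direction. At 4 years against 6 months CLSPN, a checkpoint adaptor of DNA replication, had a log2 fold change of 2.48 and TRAPPC3, a subunit of a vesicle tethering complex, one of 1.23, and both rose. PSMB2, a proteasome subunit, and ADPRS, an ADP-ribose hydrolase, fell, at -0.81 and -1.75 (adjusted p of 9.93e-05 to 0.00401 for these 4, edgeR). The neighbours were chosen by place, and these 4 were named after their values were seen.

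The authors' FPKM values gave another picture of AGO1 and AGO2 than the counts. AGO1 had 7.00, 6.74 and 6.05 FPKM in the 6-month libraries, 5.31, 4.37 and 4.73 FPKM in the 18-month libraries and 6.29, 6.59 and 6.58 FPKM in the 4-year libraries. The 4-year libraries overlapped those of 6 months on this scale, and the 18-month libraries lay below both. Limma on log2(FPKM + 0.1), an alternative chosen after seeing the data, gave a log2 fold change of -0.02 ± 0.18 for AGO1 at 4 years against 6 months (adjusted p = 0.921), beside -1.11 ± 0.15 on the counts, and of -0.45 ± 0.18 at 18 months (adjusted p = 0.0578), beside -1.24 ± 0.15, so that neither passed on FPKM. On FPKM the median of all genes was shifted by 0.36 relative to the counts at 4 years and by 0.37 at 18 months, and AGO1 less that shift was -0.38 at 4 years.

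AGO2 had 13.6, 11.8 and 11.6 FPKM in the 6-month libraries, 42.8, 16 and 25.7 FPKM in the 18-month libraries and 48.9, 45.0 and 41.0 FPKM in the 4-year libraries. Limma on FPKM gave AGO2 a log2 fold change of 1.86 ± 0.31 at 4 years (adjusted p = 0.000537) and of 1.07 ± 0.31 at 18 months (adjusted p = 0.0139), both past the threshold and larger than on the counts, while 72.6% and 59.1% of all genes passed on FPKM. The values of AGO2 and of the genes that follow still hold the median shift of 0.36 at 4 years and 0.37 at 18 months. AGO3 (-0.88 ± 0.26, adjusted p = 0.0123), AGO4 (-2.29 ± 0.42, adjusted p = 0.000958) and XPO5 (2.6 ± 0.29, adjusted p = 6.22e-05) kept their direction and passed by limma on FPKM at 4 years, and DROSHA did not (-0.31 ± 0.22, adjusted p = 0.233). The authors' deposited table of 6 months against 4 years lists AGO2, AGO4 and XPO5 with log2 ratios of -1.87, 2.37 and -2.62 of 6 months over 4 years, and neither AGO1 nor AGO3. The authors' deposited table holds only ratios of FPKM means of at least about 2-fold in either direction.

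FPKM divides counts by a library total and by a transcript length, and the counts behind each unit of FPKM hold both. For AGO2 the log2 of counts per FPKM, set to the commonest value of each library and then to the 6-month mean, was -0.03, 0.04 and -0.01 at 6 months, -0.89, -0.32 and -0.70 at 18 months and -1.01, -0.86 and -0.81 at 4 years. For AGO1 it was 0.02, -0.05 and 0.03 at 6 months, -0.65, -0.05 and -0.38 at 18 months and -0.75, -0.72 and -0.72 at 4 years. For AGO3 it was -0.15, -0.10 and 0.25 at 6 months, -0.25, -0.32 and -0.14 at 18 months and -0.70, -0.58 and -0.44 at 4 years. In all 3 genes every 4-year library lay below every 6-month library, and in AGO1 and AGO2 replicate 2 at 18 months lay nearest to 6 months. DGCR8 and TARBP2 moved by less than 0.1 in every library, DROSHA and XPO5 had 4-year means of -0.02 and -0.18, and DICER1 one of -0.04. AGO4 was left out because its FPKM was under 1 in 1 library. Of 10027 genes with a count of at least 50 and an FPKM of at least 1 in every library, 9.55% were below -0.4 at 4 years and 70.6% were within 0.1 of 0. These values describe the authors' quantification. Which transcripts it assigned was not tested here.

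**Figure D3:**
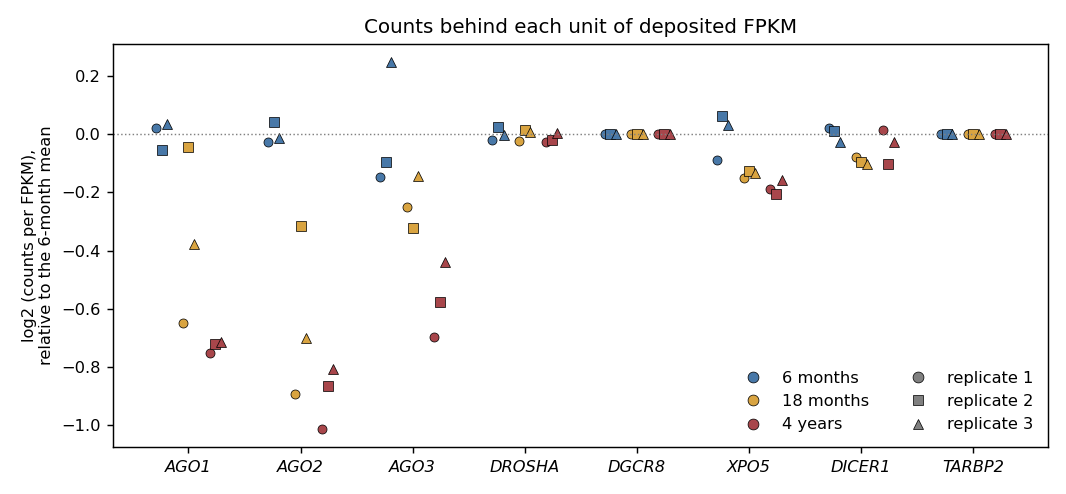
Log2 of counts per unit of deposited FPKM for 8 of the genes in each long RNA library, set to the commonest value of the library and relative to the 6-month mean of the gene; colours mark the age and symbols the replicate number. AGO1, AGO2 and AGO3 had lower values at 4 years than at 6 months, whereas DGCR8 and TARBP2 stayed within 0.1 of 0.

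In the nucleus, the catalytic subunit of the Microprocessor fell and no change of its partner passed the test. DROSHA had 15.8, 13.8 and 16.5 CPM in the 6-month libraries, 10.3, 11.1 and 10.1 CPM in the 18-month libraries and 9.12, 9.99 and 9.46 CPM in the 4-year libraries. Both older ages lay below every 6-month library. DROSHA fell with a log2 fold change of -0.69 ± 0.18 at 4 years (adjusted p = 0.00762, edgeR) and -0.55 ± 0.18 at 18 months (adjusted p = 0.0276, edgeR). The 18-month call was lost under DESeq2's size factors in edgeR (adjusted p = 0.0537), with only the 2 ages compared (adjusted p = 0.0923), on FPKM (-0.12, limma, adjusted p = 0.652) and without 4 of the 9 libraries in turn (adjusted p of 0.0522 to 0.0897). With library size as the only scaling neither call passed (-0.14 at 18 months and -0.39 at 4 years), a scaling that moved the median of all genes by 0.40 and 0.29 on the log2 scale. DGCR8 had 56.7, 51.4 and 47.1 CPM in the 6-month libraries, 44.6, 59.8 and 37.7 CPM in the 18-month libraries and 50.2, 43.8 and 43.1 CPM in the 4-year libraries, and its ages overlapped. Its log2 fold change was -0.13 ± 0.20 at 18 months (adjusted p = 0.594, edgeR) and -0.18 ± 0.20 at 4 years (adjusted p = 0.426, edgeR), so none was detectable. The log2 ratio of DGCR8 to DROSHA was 1.75 ± 0.21, 2.15 ± 0.27 and 2.26 ± 0.18 at 6 months, 18 months and 4 years (exact permutation test, adjusted p = 0.0714).

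XPO5, the exporter of pre-miRNA hairpins, rose most of the 9. It had 34.8, 37.7 and 43.5 CPM in the 6-month libraries, 174, 64.5 and 103 CPM in the 18-month libraries and 179, 176 and 137 CPM in the 4-year libraries. Every older library lay above every 6-month library, and the 3 animals of 18 months were spread from near the 6-month level to the 4-year level. XPO5 rose 2.95-fold at 18 months (log2 fold change 1.56 ± 0.33, adjusted p = 0.00338, edgeR) and 4.24-fold at 4 years (2.08 ± 0.33, adjusted p = 0.000537, edgeR). Neither call was lost under any alternative run. At 4 years against 18 months the difference was 0.53 ± 0.32 (adjusted p = 0.334, edgeR), and without replicate 1 at 18 months 0.97 (adjusted p = 0.0203). As for AGO4, the share of all genes that passed in that run is not given here. XPO5 counts were 2.20, 2.72 and 2.63 times DROSHA counts at 6 months, 16.9, 5.81 and 10.2 times at 18 months and 19.6, 17.6 and 14.5 times at 4 years (exact permutation test, adjusted p = 0.0143).

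In the cytoplasm, DICER1 and TARBP2 did not pass the test in any of the 3 comparisons. DICER1 had 99.7, 94.8 and 103 CPM in the 6-month libraries, 54.2, 102 and 63.1 CPM in the 18-month libraries and 70.0, 65.5 and 79.2 CPM in the 4-year libraries. The 4-year libraries and 2 of the 18-month libraries lay below every 6-month library, and replicate 2 at 18 months lay within the 6-month range. The log2 fold change of DICER1 was -0.44 ± 0.23 at 18 months (adjusted p = 0.128, edgeR) and -0.47 ± 0.23 at 4 years (adjusted p = 0.0938, edgeR). Without replicate 2 at 18 months the first was -0.64 (adjusted p = 0.00361) and the second -0.35 (adjusted p = 0.0342), both past the threshold. Without replicate 1 at 18 months only the second passed (-0.47, adjusted p = 0.0496). On FPKM the DICER1 difference at 4 years was -0.08 ± 0.27 (limma, adjusted p = 0.791). Over all alternative runs the adjusted p of DICER1 at 4 years against 6 months ranged from 0.0171 to 0.791, so passing depended on the run.

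TARBP2 had 6.80, 8.41 and 8.41 CPM in the 6-month libraries, 6.96, 10.9 and 10.1 CPM in the 18-month libraries and 7.49, 6.40 and 5.86 CPM in the 4-year libraries. Its ages overlapped except that 2 of the 18-month libraries lay above all others. The log2 fold change was 0.24 ± 0.25 at 18 months (adjusted p = 0.423, edgeR) and -0.26 ± 0.25 at 4 years (adjusted p = 0.371, edgeR). The log2 ratio of TARBP2 to DICER1 was -3.66 ± 0.19, -2.94 ± 0.29 and -3.44 ± 0.28 at 6 months, 18 months and 4 years (exact permutation test, adjusted p = 0.0306), highest at 18 months, and that of DROSHA to DICER1 did not pass (exact permutation test, adjusted p = 0.564).

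**Figure D4:**
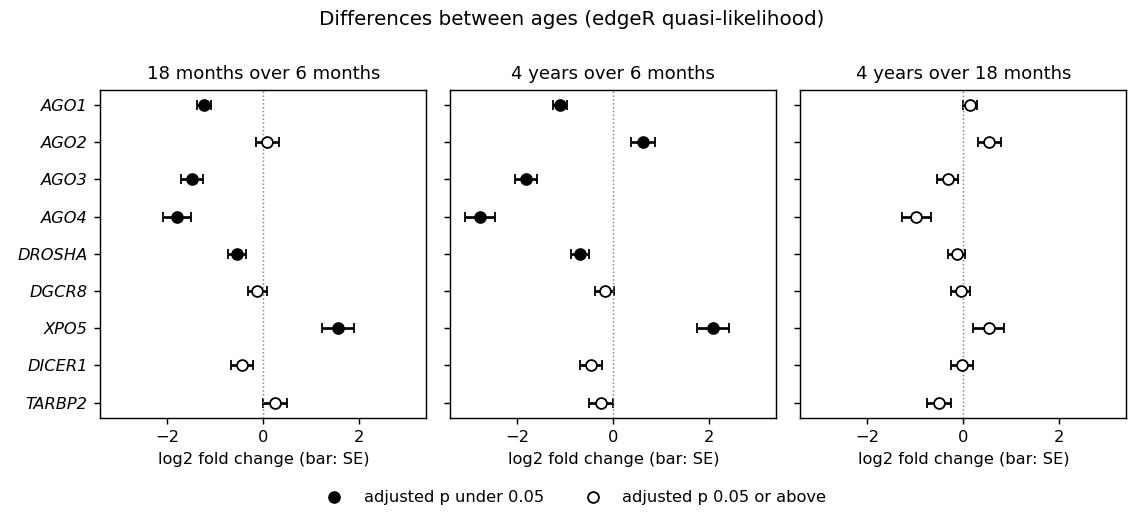
Log2 fold change of the 9 genes between ages, with its SE, from edgeR on the counts of 9 libraries; filled points have an adjusted p under 0.05. AGO4 and XPO5 lay farthest from 0 against 6 months, on opposite sides, and no gene passed between 4 years and 18 months.

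By Pearson correlation of log2 CPM over the 9 libraries, the genes most like XPO5 in their course were TMEM53 (r = 0.997) and ZNF827 (r = 0.997), and those most like AGO4 were CNPY2 (r = 0.999) and ARNT (r = 0.999). Those most like AGO1 were FOXN3 (r = 0.994) and FAT2 (r = 0.994), those most like AGO2 EBF1 (r = 0.991) and SULT1A1 (r = 0.986), and those most like AGO3 RPS21 (r = 0.997) and EXT1 (r = 0.996), of which RPS21 carries a symbol that stands on more than 1 identifier. For DROSHA they were HNRNPK (r = 0.995) and MAGEF1 (r = 0.993), where HNRNPK is likewise a shared symbol, and for DICER1 TXLNG (r = 0.968) was among them. For DGCR8 and TARBP2, which did not pass in any comparison, they were FANCA (r = 0.945) and CBLC (r = 0.932), and USP21 (r = 0.968) and ADRA2C (r = 0.959). The points share their libraries and the split between 6 months and the older ages, and these values only rank genes.

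Partners of the 9 genes were followed in 5 lists of symbols that stand on a single identifier. Of 10 nuclear cofactors of primary miRNA cleavage and export, 5 rose and 3 fell at 4 years against 6 months, with a median log2 fold change of 0.54, and at 18 months 3 rose and 2 fell. Over the 5 lists 52 of 72 genes tested passed at 4 years and 42 at 18 months against 6 months, near the 73.9% and 59.9% of all genes that passed (36.7% higher and 37.2% lower at 4 years, and 32.7% higher and 27.1% lower at 18 months). SRRT, which ties the cap of the primary transcript to the Microprocessor, averaged 176 ± 17.5 CPM at 4 years and 58.8 ± 1.92 CPM at 6 months (log2 fold change 1.58 ± 0.25, adjusted p = 0.000511, edgeR). KHSRP, a protein that binds the terminal loop of some precursors, rose by 1.29 ± 0.20 (adjusted p = 0.000508, edgeR), and DDX5 (0.84) and NCBP1 (1.14) also rose at 4 years on the log2 scale. DDX17, a helicase of the Microprocessor, fell to 327 ± 14.4 CPM at 4 years, against 756 ± 40.9 CPM at 6 months (-1.21 ± 0.19, adjusted p = 0.000535, edgeR), and NCBP2 (-0.77) and SAFB2 (-0.72) also fell. The paralogue helicases DDX5 and DDX17 thus passed in opposite directions at 4 years.

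Of 10 partners of Dicer and of Argonaute loading, 4 rose and 3 fell at 4 years against 6 months (median 0.34), and 4 rose and 2 fell at 18 months. ADARB1, an adenosine deaminase that edits double-stranded RNA, averaged 392 ± 102 CPM at 4 years and 40.1 ± 6.45 CPM at 6 months (3.29 ± 0.32, adjusted p = 6.14e-05, edgeR). Its paralogue ADAR fell at 4 years, with a log2 fold change of -1.74. FKBP4, a co-chaperone of HSP90, averaged 869.6 ± 49.6 CPM at 4 years and 200.2 ± 43.8 CPM at 6 months (2.12 ± 0.24, adjusted p = 0.000104, edgeR), and TSNAX (1.49) and TSN (0.43), the subunits of a nuclease known to help clear the passenger strand, also rose. IPO8, an importin that binds Argonautes, fell to 22.3 ± 2.07 CPM at 4 years, against 51.1 ± 6.26 CPM at 6 months (-1.20 ± 0.18, adjusted p = 0.000418, edgeR), and did not pass on FPKM (-0.42, limma, adjusted p = 0.130). PRKRA, a double-stranded RNA-binding partner of Dicer beside TARBP2, also fell, with a log2 fold change of -1.0.

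Of 35 silencing effectors, 16 rose and 12 fell at 4 years (median 0.10), and 13 rose and 9 fell at 18 months, both against 6 months. CNOT1, the scaffold of the CCR4-NOT deadenylase, averaged 1181 ± 52.9 CPM at 4 years and 284 ± 16.8 CPM at 6 months (2.06 ± 0.26, adjusted p = 0.000188, edgeR). PATL1, a decapping factor, averaged 74.3 ± 6.68 CPM at 4 years and 13.6 ± 0.618 CPM at 6 months (2.45 ± 0.28, adjusted p = 0.000117, edgeR). BTG4, a germ cell partner of that deadenylase, averaged 14.3 ± 1.47 CPM at 4 years and 0.0141 ± 0.0244 CPM at 6 months, where it was near 0, and rose (adjusted p = 7.63e-05, edgeR). AJUBA, a LIM protein known to bind Argonaute complexes in human cells, fell to 23.3 ± 0.807 CPM at 4 years, against 82.6 ± 19.9 CPM at 6 months (-1.83 ± 0.22, adjusted p = 0.000147, edgeR). Of the TNRC6 adaptors, which bind Argonautes directly, TNRC6A fell at 4 years with a log2 fold change of -1.07 (adjusted p = 0.00391, edgeR), while TNRC6B and TNRC6C had -0.13 and -0.05 and did not pass. These 3 were named after their values were seen.

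Of 13 genes measured for the tailing, trimming and decay of miRNAs, 3 rose and 3 fell at 4 years (median -0.14), and 2 rose and 4 fell at 18 months, both against 6 months. LIN28B, which binds let-7 precursors, averaged 17.8 ± 2.69 CPM at 4 years and 2.20 ± 0.149 CPM at 6 months (3.02 ± 0.29, adjusted p = 6.37e-05, edgeR). ZSWIM8, the ubiquitin ligase adaptor of target-directed miRNA decay, averaged 90.0 ± 5.21 CPM at 4 years and 35.6 ± 0.962 CPM at 6 months (1.34 ± 0.20, adjusted p = 0.000391, edgeR), and PNPT1 (0.53) also rose. SND1, a staphylococcal-type nuclease, fell to 124 ± 4.22 CPM at 4 years, against 575 ± 64.4 CPM at 6 months (-2.21 ± 0.34, adjusted p = 0.000408, edgeR), and PARN (-1.02) also fell. TUT4, a terminal uridylyltransferase, fell on the counts (-0.55 ± 0.15, adjusted p = 0.00851, edgeR), but its sign was reversed on FPKM (1.36, limma, adjusted p = 0.00837), and with library size as the only scaling it did not pass (-0.25, adjusted p = 0.187). Of the 4 PIWI Argonautes, the germ cell branch of the family that binds piRNAs, PIWIL1, PIWIL2 and PIWIL3 rose at both older ages and PIWIL4 did not pass. PIWIL1 averaged 227 ± 44.6 CPM at 4 years and 0.601 ± 0.330 CPM at 6 months (adjusted p = 3.24e-05, edgeR), and PIWIL2 72.7 ± 3.15 CPM at 4 years and 19.1 ± 8.32 CPM at 6 months (adjusted p = 0.000616, edgeR). PIWIL3 was low at every age, averaging 0.193 ± 0.119, 0.946 ± 0.243 and 0.778 ± 0.232 CPM at 6 months, 18 months and 4 years. None of the 72 genes tested in the 5 lists passed between 4 years and 18 months in edgeR, or in DESeq2. Of the 72, 10 had an unadjusted p under 0.05 in edgeR, where 21.3% of all genes did, so that count was not above the background.

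CircRNAs, which form when a downstream splice site joins an upstream one and are counted by their back-splice reads, were found for 8 of the 9 hosts and for TARBP2 in none of the libraries. DROSHA had 20, AGO3 17, DICER1 and XPO5 15 each, AGO1 7, AGO2 and AGO4 6 each, and DGCR8 2. Of the 88, 80 were made of annotated exons and 8 spanned exon and intron, and together they had 934 reads, with 57 seen in 1 library only. Only 2 of the 88 had enough reads to be tested singly, both of them among 3877 circRNAs tested.

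A circRNA of AGO3 rose while the AGO3 gene fell. novel_circ_049473, at chr3:109822701-109833963 on the minus strand with a spliced length of 568 bases, had 4, 0 and 1 reads at 6 months, 39, 20 and 21 at 18 months and 15, 17 and 11 at 4 years. Every older library lay above every 6-month library. Its log2 fold change was 3.78 ± 0.93 at 18 months (adjusted p = 0.0460, edgeR) and 3.34 ± 0.93 at 4 years (adjusted p = 0.0317, edgeR), where 5.26% and 21% of all circRNAs tested passed, with 4.72% and 15.2% of them higher at the older age. Both calls were near the threshold and were lost in DESeq2 (adjusted p = 0.0625 and 0.0502), the first also without any 1 library except replicate 2 at 18 months and the second without 6 of the 9 libraries in turn (adjusted p of 0.0714 to 0.136 and 0.0506 to 0.0947). Of all AGO3 back-splice reads it made up 5 of 76 reads (6.58%, 95% exact Clopper-Pearson interval 2.17 to 14.7%) at 6 months, 80 of 146 reads (54.8%, 95% exact Clopper-Pearson interval 46.4 to 63.0%) at 18 months and 43 of 100 reads (43.0%, 95% exact Clopper-Pearson interval 33.1 to 53.3%) at 4 years. Intervals cover counting error only.

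The other AGO3 circRNAs had too few reads to be tested singly. novel_circ_049474, which shares its lower edge at position 109822701 with novel_circ_049473 and reaches further upstream, had 9, 8 and 4 reads at 6 months, 0, 9 and 3 at 18 months and 0, 3 and 5 at 4 years. That edge was shared by 4 circRNAs holding 239 of the 322 AGO3 reads. Summed over all its circRNAs AGO3 had 47, 19 and 10 reads at 6 months, 62, 45 and 39 at 18 months and 23, 47 and 30 at 4 years, and the ages overlapped. The summed log2 fold change was 0.76 ± 0.52 at 18 months and 0.62 ± 0.53 at 4 years, neither past the threshold (adjusted p = 0.384 and 0.388, edgeR). Per 1000 counts of the gene, AGO3 had 98.9, 43.5 and 21.7 back-splice reads at 6 months, 318, 177 and 189 at 18 months and 162, 208 and 205 at 4 years, with every older library above every 6-month library (exact permutation test, p = 0.0250 and adjusted p = 0.05 over 4 hosts, at the threshold and not under it).

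Back-splice reads of DICER1 fell at 4 years, while no difference of its gene passed in the main edgeR fit. The gene was also lower at 4 years (log2 fold change -0.47), and that difference passed in some alternative runs. Summed back-splice reads were 60, 41 and 31 reads at 6 months, 29, 16 and 24 at 18 months and 4, 3 and 10 at 4 years, and no 4-year library reached any other. The summed log2 fold change was -2.63 ± 0.62 at 4 years against 6 months (adjusted p = 0.00802, edgeR), the only call among the 4 member hosts tested, where 31.1% of 3320 hosts passed and 12.7% were lower. At 18 months against 6 months it was -1.12 ± 0.56 (adjusted p = 0.216, edgeR), where 11.2% of hosts passed and none of the 4 did in edgeR or DESeq2, with 0 at an unadjusted p under 0.05 in edgeR. Per 1000 counts of the gene, DICER1 had 25.6, 19.0 and 13.9 back-splice reads at 6 months, 18.0, 5.55 and 12.6 at 18 months and 2.19, 1.57 and 5.25 at 4 years (exact permutation test, adjusted p = 0.0429 over 4 hosts). That call was lost with a pseudocount of 5 in place of 0.5 (exact permutation test, adjusted p = 0.0571) and without 7 of the 9 libraries in turn (0.05 to 0.143).

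The leading DICER1 circle, novel_circ_033022 at chr21:59990633-59999442 on the minus strand, had 40, 14 and 14 reads at 6 months, 10, 13 and 13 at 18 months and 0, 0 and 5 at 4 years. Its log2 fold change of -3.21 ± 1.15 at 4 years did not pass (adjusted p = 0.0714, edgeR). novel_circ_033024, at chr21:59990633-60004682, starts from the same lower edge and had 17, 8 and 11 reads at 6 months, 4, 1 and 3 at 18 months and 4, 0 and 5 at 4 years. That edge, at position 59990633, was shared by 7 DICER1 circRNAs that held 194 of the 218 reads of the host. On the minus strand the lower edge is the downstream end of the circle.

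The remaining hosts had few reads. XPO5, the gene that rose most, had 4, 17 and 12 reads at 6 months, 20, 33 and 27 at 18 months and 12, 6 and 15 at 4 years summed over its circRNAs, which did not pass at 4 years (log2 fold change 0.28 ± 0.64, adjusted p = 0.772, edgeR). Its leading circRNAs were novel_circ_035829, at chr23:17109866-17112646 on the minus strand with 0, 4 and 2 reads at 6 months, 7, 18 and 5 at 18 months and 2, 0 and 1 at 4 years, and novel_circ_035825, at chr23:17095571-17107134 with 0, 0 and 0 reads at 6 months, 8, 0 and 16 at 18 months and 0, 0 and 1 at 4 years. The second was seen in 3 libraries only, 2 of them of 18 months. DROSHA had 22, 35 and 13 reads at 6 months, 9, 26 and 15 at 18 months and 14, 16 and 7 at 4 years and did not pass at 4 years (-0.73 ± 0.53, adjusted p = 0.310, edgeR), and novel_circ_030877 at chr20:42085471-42102081 on the plus strand, with 79 reads, was seen in all 9 libraries. The leading circRNA of AGO4, novel_circ_049487 at chr3:109955852-109961147, had 4, 7 and 5 reads at 6 months, 0, 6 and 0 at 18 months and 0, 0 and 0 at 4 years, so that none was seen at 4 years, where AGO4 itself was lowest. Those of AGO1 (novel_circ_049479), DGCR8 (novel_circ_021213) and AGO2 (novel_circ_012797) had 11, 10 and 5 reads in all. The next circRNA of DROSHA, novel_circ_030873, had 18 reads, and the next of AGO1, AGO2, AGO4 and DGCR8 had 3 or 4 reads each, in 1 library.

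**Figure D5:**
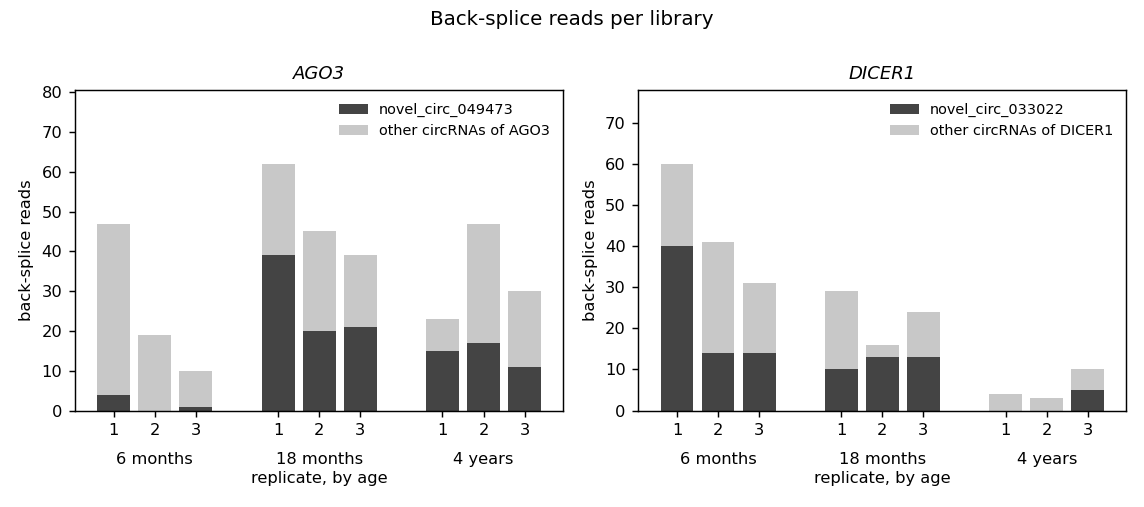
Back-splice reads of AGO3 and of DICER1 in each long RNA library, by age and replicate number; the dark part of a bar is the circRNA with most reads and the light part all other circRNAs of the host. The dark part of AGO3 was at most 4 reads at 6 months and at least 11 at both older ages, and the DICER1 bars were lowest at 4 years, at 3 to 10 reads.

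The small RNA libraries of the same animals held miRNAs whose making is known to bypass a member gene, that lie inside a member's transcript, or that bind a member's mRNA. Their mature sequences are given as the deposited table has them, 5′ to 3′, with the seed in capitals, since the seeds tell which of them share targets.
bta-miR-451: aAACCGTTaccattactgagttt
bta-miR-320a: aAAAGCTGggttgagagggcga
bta-miR-484: tCAGGCTCagtcccctcccgat
bta-miR-877: gTAGAGGAgatggcgcaggg
bta-miR-1306: cCACCTCCcctgcaaacgtcc
miR-1306-y: aCGTTGGCtctggtggtgatgt
bta-let-7f: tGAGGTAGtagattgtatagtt
bta-let-7a-5p: tGAGGTAGtaggttgtatagtt
bta-miR-103: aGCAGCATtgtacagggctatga
bta-miR-107: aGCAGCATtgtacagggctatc
The let-7 forms share the seed GAGGTAG, and miR-103 and miR-107 share GCAGCAT and differ near the 3′ end. Names ending in -x, -y or -z are further entries of the table, often the same sequence with other ends, so reads of 1 miRNA can be split between entries.

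miR-451, which in mouse and zebrafish is cut by Ago2 in place of Dicer, had 188, 208 and 84.9 CPM at 6 months, 92.3, 87.5 and 67.0 CPM at 18 months and 78.8, 128 and 126 CPM at 4 years in the entry bta-miR-451, where CPM is of miRNA counts with TMM scaling. Replicate 3 at 6 months lay among the older libraries. The log2 fold change was -0.96 ± 0.33 at 18 months (adjusted p = 0.0351, edgeR over 881 miRNAs) and -0.53 ± 0.33 at 4 years (adjusted p = 0.179, edgeR), so that it fell at 18 months by this test, and the difference between the older ages did not pass (adjusted p = 0.420, edgeR). The 18-month call was lost without 7 of the 9 libraries in turn (adjusted p of 0.0565 to 0.205), and at 4 years it passed without replicate 3 at 6 months (adjusted p = 0.0454). Of all miRNAs tested, 51.9% passed at 18 months and 65.5% at 4 years against 6 months, with 22.9% and 29.6% lower.

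miRNAs that in the mouse are made without the Microprocessor were represented by 9 tested entries, of which 4 fell and none rose at either older age against 6 months. bta-miR-320a had 790.3, 821 and 729 CPM at 6 months, 503, 611 and 641 CPM at 18 months and 370.1, 439.8 and 411 CPM at 4 years, and no age overlapped another. It fell by 0.42 ± 0.15 on the log2 scale at 18 months (adjusted p = 0.0455, edgeR) and 0.94 ± 0.16 at 4 years (adjusted p = 0.000561, edgeR). The 18-month call was lost without 8 of the 9 libraries in turn (adjusted p of 0.0868 to 0.215), while that at 4 years held under every alternative run. bta-miR-484 had 190.2, 164 and 148 CPM at 6 months, 183, 121 and 181 CPM at 18 months and 114, 144 and 175 CPM at 4 years, and its ages overlapped (log2 fold change -0.21 ± 0.23 at 4 years, adjusted p = 0.431, edgeR). bta-miR-877, from a short intron, had 1.91, 2.00 and 2.01 CPM at 6 months, 1.3, 1.69 and 1.05 CPM at 18 months and 3.30, 1.43 and 0.892 CPM at 4 years and did not pass at 4 years (-0.07 ± 0.48, adjusted p = 0.916, edgeR). Its longer entry miR-877-x averaged 6.23 ± 1.09 CPM at 4 years and 10.4 ± 1.71 CPM at 6 months and fell (-0.75 ± 0.24, adjusted p = 0.0201, edgeR), a call lost without 4 of the 9 libraries in turn (adjusted p of 0.0604 to 0.108). miR-320-y and miR-320-z, which carry the seed of bta-miR-320a, also fell at both older ages. miR-320-z averaged 22.6 ± 1.84 CPM at 4 years and 53.7 ± 3.35 CPM at 6 months (-1.25 ± 0.19, adjusted p = 0.000362, edgeR), and miR-320-y 116 ± 9.79 CPM at 4 years and 162 ± 9.36 CPM at 6 months (-0.48 ± 0.16, adjusted p = 0.0245, edgeR). The calls of miR-320-y were lost without 8 of the 9 libraries in turn at 18 months (adjusted p of 0.0588 to 0.148) and without 7 at 4 years (0.0510 to 0.174), and at both ages with library size as the only scaling. The 3 entries that did not pass beside those above were miR-484-x, miR-484-z and miR-877-z, with log2 fold changes of -0.25 ± 0.34, -0.45 ± 0.34 and -0.03 ± 0.29 at 4 years, and miR-877-y and miR-1224-x had too few counts to be tested.

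miR-1306 lies, in human, inside the DGCR8 transcript. bta-miR-1306 had 38.7, 29.1 and 26.9 CPM at 6 months, 21.0, 17.2 and 21.6 CPM at 18 months and 15.3, 14.3 and 21.4 CPM at 4 years, and the older libraries lay below every 6-month library. It fell by 0.66 ± 0.24 at 18 months (adjusted p = 0.0417, edgeR) and 0.89 ± 0.24 at 4 years (adjusted p = 0.00879, edgeR), and its longer entry miR-1306-x fell at 4 years (-1.45 ± 0.50, adjusted p = 0.0279, edgeR). Leaving out 1 library in turn ended the 18-month call of bta-miR-1306 in 8 of 9 cases (adjusted p of 0.0597 to 0.200), its 4-year call in 2 (0.0523 to 0.0590) and that of miR-1306-x in 5 (0.0555 to 0.123). miR-1306-y, another sequence of that name, had 12.4, 7.90 and 6.56 CPM at 6 months, 7.14, 6.61 and 7.85 CPM at 18 months and 13.3, 10.1 and 10.3 CPM at 4 years and did not pass at 4 years (0.33 ± 0.27, adjusted p = 0.309, edgeR). DGCR8 itself had not passed in any comparison.

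miRNAs known from human cells to bind DICER1 mRNA include the let-7 family with miR-98, miR-103 and miR-107. Matched by name, with both arms of the hairpin included, these miRNAs had 20 tested entries. Of these, 5 fell at 18 months and 12 at 4 years against 6 months and none rose. Of all miRNAs tested, 22.9% were lower at 18 months and 29.6% at 4 years, so the 18-month count was near the background. Of the 12 at 4 years, bta-let-7a-3p, let-7-y and miR-98-y carry neither the seed GAGGTAG nor GCAGCAT, and miR-107-y carries GCAGCAT. Whether the entries without either seed bind DICER1 mRNA was not tested. Several entries can be forms of 1 miRNA, so the 12 are not separate miRNAs. Also at 4 years, leaving out 1 library ended the call of let-7-x in 8 of 9 cases. It ended those of bta-let-7e and bta-let-7g in 6 each and that of bta-let-7c in 2. At 18 months the call of bta-let-7i was lost in 8 of 9 cases. Those of bta-let-7d, bta-let-7a-3p and let-7-y at 18 months held in every run (highest adjusted p of 0.0469, 0.0381 and 0.00650). bta-let-7f had 99377, 93014 and 112008 CPM at 6 months, 36863, 85304 and 57557 CPM at 18 months and 32437, 30935 and 26281 CPM at 4 years. The 4-year libraries lay below all others and replicate 2 at 18 months lay near the 6-month level. It fell by 1.76 ± 0.26 at 4 years against 6 months (adjusted p = 0.000301, edgeR), by 0.76 ± 0.25 at 18 months (adjusted p = 0.0295, edgeR) and by 1.0 ± 0.25 at 4 years against 18 months (adjusted p = 0.0361, edgeR), the only entry of the 4 miRNA lists past the threshold in that comparison, where 9.53% of all miRNAs passed and 8.51% were lower. Without 1 library in turn the 18-month call was lost in 6 of 9 cases (adjusted p of 0.0547 to 0.109) and that between the older ages in 5 (0.0538 to 0.0986). bta-let-7a-5p, which is nearly the same sequence, averaged 37344 ± 1858 CPM at 4 years and 42589 ± 1370.2 CPM at 6 months and did not pass (-0.19 ± 0.11, adjusted p = 0.139, edgeR). Entries this alike can exchange reads, so the values of single let-7 members are uncertain. bta-miR-103 averaged 1066 ± 44.9 CPM at 4 years and 887 ± 30.2 CPM at 6 months (0.26 ± 0.14, adjusted p = 0.109, edgeR), and bta-miR-107 169.7 ± 7.45 CPM at 4 years and 220.5 ± 19.5 CPM at 6 months (-0.38 ± 0.16, adjusted p = 0.0538, edgeR), neither past the threshold. miR-107-y, a shorter entry with the same seed, averaged 12.6 ± 0.364 CPM at 4 years and 20.4 ± 2.99 CPM at 6 months and fell (-0.69 ± 0.20, adjusted p = 0.0128, edgeR), a call lost without 4 of the 9 libraries in turn (adjusted p of 0.0547 to 0.0810).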

How the data were processed

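Testis tissue of 9 yaks was sequenced as 9 long RNA and 9 small RNA libraries, with RIN values, per the labels, above the stated minimum. Build UMD3.1 stands in the submitters' processing notes, with StringTie 1.3.4, HISAT2 2.1.0 and fastp 0.18.0 but no role for each. Which programs counted genes, circRNAs and miRNAs is not given in the sources used here. Genes have estimated counts and FPKM values as deposited by the authors, and 3137 of them had a count that was not whole, so counts were rounded. CircRNAs and miRNAs have whole read counts as deposited by the authors. The authors' deposited tables of pairs of ages give log2 ratios of group means with a p-value and an FDR, and were used only where named.

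All 9 libraries of each RNA class entered 1 edgeR 4.0.16 model (R 4.3.3) that had age and no other term, filterByExpr at a minimum count of 10, TMM scaling, glmQLFit and glmQLFTest. The model leaves 6 residual degrees of freedom, and p-values were adjusted by Benjamini-Hochberg over all features tested, with a threshold of 0.05. The SE is the size of the log2 fold change divided by the square root of F. Ratios used a pseudocount of 0.5, and hosts needed at least 50 back-splice reads to be tested per 1000 gene counts. DESeq2 1.42.0, and limma 3.58.1 on the deposited FPKM, served as alternatives. The scripts were tested on simulated data.

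The members, gene lists, marker lists and miRNA lists were chosen with earlier results of these data known. Named beside the 9 genes were the 4 list genes with the smallest p in each list, list genes counted in groups of 5 or fewer, the 2 circRNAs with most reads per host with those past the threshold, the 2 genes most like each member and the miRNAs of the lists. List symbols on more than 1 identifier were left out. Some genes that these rules would name are not reported here.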

Additional observations from a re-analysis of the deposited data

How the results depend on the processing

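Depth limits the circRNAs most, since 2 of 88 could be tested, and the 18-month libraries limit the comparison of the older ages. A p that missed the threshold there does not show that values were alike. The counts of member genes past the threshold, 5 at 18 months and 6 at 4 years against 6 months, were 4 to 5 and 5 to 7 when 1 library was left out, and 0 to 3 between 4 years and 18 months. The shares of all genes that passed in those runs are not given here, so these ranges do not set the members apart. Leaving out 1 library gave 0 to 1 circRNAs against 6 months at either older age and 0 to 0 between the older ages. It gave 0 to 0, 1 to 1 and 0 to 0 hosts for summed reads at 18 months, at 4 years and between the older ages, and 0 to 1 hosts per 1000 gene counts. It gave 30 to 51, 43 to 54 and 0 to 17 pathway list genes. Of the miRNAs of the lists it gave 4 to 9, 10 to 19 and 0 to 7, and of the ratios 0 to 8.

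Animals of different ages share only a replicate number, and deviations of same-numbered libraries correlated at -0.14 to 0.10, so the numbers were not taken to pair the samples. With the replicate number as a block, 0 ratios passed in place of 7 and 0 hosts per 1000 gene counts in place of 1. Permuting within blocks leaves far fewer assignments and raises the smallest p, so those tests could hardly pass and decide nothing. In the edgeR fits with that block, 0 circRNAs passed in place of 1 at either older age. For miRNAs of the lists it was 7 in place of 11 at 18 months, and 0 in place of 1 between the older ages. DROSHA at 18 months was also lost (adjusted p = 0.0589), as were, among the miRNAs named, bta-miR-451, bta-miR-320a and bta-miR-1306 at 18 months and miR-1306-x at 4 years.

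The circRNA of AGO3 was also lost, leaving 0 circRNAs, with DESeq2 and with no filter on low counts at both older ages, and at 18 months with a minimum count of 3 or with only the 2 ages compared. The miRNAs of the lists past the threshold at 18 months were 6 with library size as the only scaling, 7 with no filter and 4 with only the 2 ages compared. Between the older ages they were 3 with DESeq2 and 0 with only the 2 ages compared. With a pseudocount of 5 in place of 0.5, 0 hosts passed per 1000 gene counts, and with none 2 passed. On FPKM, an alternative chosen after seeing the data, TUT4 had the opposite sign, at 0.40 (adjusted p = 0.375, limma) at 18 months and 1.36 (adjusted p = 0.00837, limma) at 4 years. The causes were not tested. Of all genes called at 18 months, 54.7% were higher on the counts with TMM, against 72.6% with library size alone and 71.9% on FPKM, and at 4 years 49.7%, against 58.3% and 61.9%.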
